A study of Gallus gallus with 40 samples.

Results

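The circadian clock genes around PER3 were followed in chicken breast muscle with 10 genes, namely the activators CLOCK and ARNTL (also written BMAL1), the repressors PER2, PER3, CRY1 and CRY2, the nuclear receptor NR1D2, and the bZIP factors TEF, HLF and NFIL3. The genes were chosen by their known place in the clock, and the list was built around PER3 because its intensity differed between moderate and mild white striping on these same arrays, as did that of TEF between severe and mild white striping. For this reason PER3 and TEF are described in the white striping groups without a test. The list was drawn up with earlier results of these data known. The values on the wooden breast arrays are therefore not shown to be independent of the choice. The 10 genes were represented by 32 probes, out of 56401 non-control probes and 13912 genes with a matched symbol on the array.

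The vertebrate clock is a feedback loop in which CLOCK and ARNTL form a dimer that switches on the PER and CRY genes, whose proteins in turn hold the dimer in check. NR1D2 (REV-ERB beta) is a repressor in a side loop that acts on ARNTL transcription, and TEF and HLF are activators of clock output genes on D-box elements, where NFIL3 acts as a repressor. Clocks of this kind run in skeletal muscle as well as in the brain, so the level of a clock transcript depends on the time of day at which a bird is sampled, and the time of day of slaughter was not given in the sources used here.

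Total RNA of the pectoralis major of commercial male Ross broilers was hybridized to 40 one-colour (Cy3) arrays, 21 in a white striping (WS) study and 19 in a wooden breast (WB) study. WS is the deposition of white stripes along the fibres of the breast fillet, and WB is a hardening of the same muscle, both graded by appearance. The WS study held 4 non-WS, 7 mild WS, 6 moderate WS and 4 severe WS samples, whose age is not on the labels (7 weeks in the methods for the birds with striping). The study's methods describe only birds with some striping and report that no sample free of it was found in their collection. The non-WS samples therefore rest on their labels alone, and their age, flock and sampling occasion are not known here. The part of these in the differences from non-WS was not tested. In the WB study, non-WB muscle with mild WS (n = 3) or moderate WS (n = 4) and severe WB muscle with mild WS (n = 2) or moderate WS (n = 3) were taken at 49 days, whereas non-WB muscle with severe WS (n = 4) and severe WB muscle with mild WS (n = 3) came from birds of 45 days or under. The labels name no treatment and no genetic change for any group. The birds came from several farms, and nothing in the labels ties a sample to a farm, so the p-values measure the spread between these samples.

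Values below are quantile-normalized processed signals (normalized intensity, within each study), and a fold change (FC) was called at an adjusted p of 0.05 or less with |FC| of 1.2 or more. In total, 32629 probes entered the WS fit and 34519 the WB fit. The median processed signal of an array ranged from 76.4 to 259 in the WS study and from 122 to 298 in the WB study, 66.9 to 78.6% of spots were well above background, and 0 were saturated. Each study was spread over slides of 8 arrays in 2 rows, and all non-WS and severe WS arrays lay in row 1 of a slide while all mild and moderate WS arrays lay in row 2, so that row and group cannot be told apart between those groups. In the WB study all 8 severe WB arrays lay in row 1 and 7 of 11 non-WB arrays in row 2, and the part of the row in the WB differences was not tested. One array, mild WS replicate 7, was the only WS array on its slide and adds nothing to the differences fitted with slide. The fast muscle markers TNNI2, TNNT3, TNNC2, PVALB and LDHA were above background on all 40 arrays. As the samples are whole muscle, fewer cells of a type and less RNA per cell cannot be told apart.

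All but 1 of the 10 genes had a measurable level. ARNTL, the partner of CLOCK, was the exception, since 0 of its 11 spots on some arrays and at most 2 on others were well above background and its median spot signal lay between 2.06 and 3.74 on all arrays. No level of ARNTL is therefore given for any group. NFIL3 was well above background on 21 of 21 WS arrays, but non-WS replicate 1 had a processed signal of 16.3, below the minimum of 20, so NFIL3 did not enter the WS fit. In all, 22 of the 32 probes (8 genes) entered the WS fit and 23 (9 genes) the WB fit, with NFIL3 being the additional gene.

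PER3 was represented by 9 probes, 7 of which passed the filter and moved together across arrays (Pearson's r with XM_015296850.1, the brightest, 0.88 to 0.989 in WS and 0.983 to 0.998 in WB). The 7 probes name alternative transcripts of 1 gene and are not independent measurements. Of the other 2, NM_001289779.1 was above background on 6 of 21 WS arrays and XM_004947319.2 on 20 of 21. For PER2, 2 of 8 probes passed, and for CLOCK 6 of 6.

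In the WS study, PER3, a partner of the CRY proteins in the repressor complex, was lowest in mild WS. Normalized intensities were 671, 212, 270.1 and 199.8 in the 4 non-WS samples. In the 7 mild WS samples the lowest was 86.9, the median 176 and the highest 274, and in the 6 moderate WS samples the lowest was 225, the median 325 and the highest 481. The 4 severe WS samples were 212, 352, 218 and 289. By group mean, PER3 descended from moderate WS (347 ± 104, SD) over non-WS (338 ± 224) and severe WS (268 ± 66.1) to mild WS (175 ± 61.5), and every group overlapped its neighbour in that order. One non-WS sample, replicate 1, set the spread of its group.

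**Figure D1:**
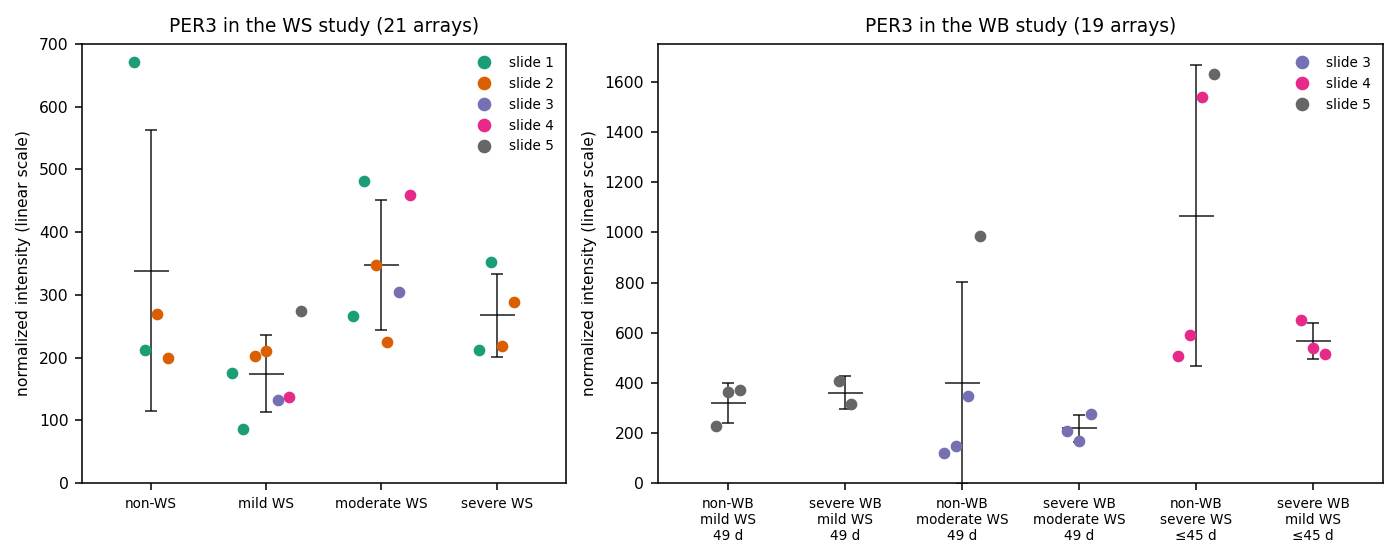
Normalized intensity of PER3 (probe XM_015296850.1, linear scale) on each array of the WS study (left) and the WB study (right), with 1 point per array coloured by slide, the group mean as a long line and the SD as the bar (cut off at 0 for non-WB moderate WS). Mild WS lies lowest on the left (86.9 to 274), and on the right all 7 samples of 45 days or under reach 507 or more.

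Between moderate and mild WS, the fitted difference of PER3 was 1.14 ± 0.30 on the log2 scale (SE, slide in the model), and 1.16 ± 0.28 for XM_004947316.2, a 2.24-fold higher intensity. Over the 7 probes it ranged from 1.02 to 1.24. Moderate WS was higher than mild WS on 4 of 4 slides that held both, by 0.43 to 1.73 on the log2 scale, and 6 of 6 moderate samples lay above the mild mean of their own slide. As PER3 was chosen for this difference on the same arrays, these tallies describe it and add no support. The share of all probes with such tallies was not counted. Severe WS exceeded mild WS by 0.79 ± 0.36 and mild WS lay 0.97 below non-WS (log2 difference -0.97 ± 0.36). Without non-WS replicate 1 the last difference shrank to -0.56, the largest shift from any array left out. These comparisons share arrays with the one that chose PER3, and mild WS is common to all 3 of them.

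CLOCK, the transcriptional activator of the loop, had main probe XM_015285393.1. It ranged from 237 to 646 on the WS arrays, and the split followed the slides, with means of 505 and 506 on slides 1 and 2 and of 277, 305 and 237 on slides 3, 4 and 5. With slide in the model no WS comparison of this probe exceeded 0.2 on the log2 scale in either direction, and over the other 5 CLOCK probes the largest was -0.27 ± 0.14 (XM_015285394.1, moderate WS against non-WS, limma adjusted p = 0.387). PER2, the other PER repressor (XM_015276795.1), was 732, 778, 996 and 949.8 in non-WS and 1571, 649, 662 and 1001 in severe WS. Mild WS samples lay between 463 and 1239 (median 614) and moderate WS samples between 298 and 1528 (median 783). All WS groups of PER2 overlapped, and the differences of this probe lay between -0.14 and 0.28 on the log2 scale. The second probe, NM_204262.1, gave a wider range, from -0.45 ± 0.39 in mild WS against non-WS to 0.54 ± 0.39 in severe against mild WS (limma adjusted p = 0.618 and 0.68).

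CRY1, a repressor that binds the CLOCK and ARNTL dimer, lay between 527 and 898 in non-WS. Mild WS samples spanned 523 to 1145, moderate WS samples 422 to 844, and severe WS samples 531 to 890. Its WS differences, between -0.35 and 0.34 on the log2 scale, were within 1.5 SE. CRY2, its paralogue, was measured by 2 probes that followed each other weakly (r = 0.288 in WS and 0.45 in WB), so the probes do not give 1 answer. The brighter, XM_015286915.1, was 0.35 lower in moderate than in mild WS (log2 difference -0.35 ± 0.15, limma adjusted p = 0.571), whereas the other, NM_204244.1, differed by -0.08 ± 0.16. Mild WS replicate 6, at 10801 against 4252 to 7074 in the other 6 mild samples, carried part of that gap: without it the difference was -0.22. In severe against moderate WS the brighter probe differed by 0.23 ± 0.17 (limma adjusted p = 0.784) and the other by 0.45 ± 0.18 (adjusted p = 0.571).

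NR1D2 (XM_015281306.1) ranged from 4207 to 9808 over the WS arrays, and the 3 highest arrays were moderate WS replicates 1 and 2 (9808 and 9037) and non-WS replicate 1 (8126), all on slide 1. Severe WS was 0.40 below moderate WS (log2 difference -0.40 ± 0.18, limma adjusted p = 0.604), and the groups overlapped. Without severe WS replicate 1, and also without the slide term, it was -0.22. HLF, the D-box activator (XM_415649.5), was 1351, 2019.6, 667 and 1259.9 in non-WS and 1375, 1499, 1229 and 2571 in severe WS. Mild WS samples ran from 1475 to 2443 (median 1761) and moderate WS samples from 1171 to 2655 (median 1804), so all groups overlapped. Mild WS was 0.78 ± 0.29 above non-WS (adjusted p = 0.221) and moderate WS 0.62 ± 0.29 above it (adjusted p = 0.325), and non-WS replicate 3, the lowest of all arrays, set much of both, since they shrank to 0.50 and 0.34 without it.

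TEF (NM_205382.1), the second D-box activator, was the tightest of the 8 genes in the WS study. Non-WS samples were 804, 838, 738 and 899, and the 7 mild WS samples lay between 542 and 646 (median 574). The 6 moderate WS samples ranged from 535 to 865 (median 701), and the 4 severe WS samples were 790.1, 733, 726 and 851. Mild WS thus lay wholly below both non-WS and severe WS, and moderate WS overlapped all other groups. The log2 differences were 0.41 ± 0.12 for severe against mild WS, 0.25 for moderate against mild WS and -0.49 ± 0.12 for mild WS against non-WS. Groups without overlap were seen for 1.82% of all probes in severe against mild WS and for 2.94% in mild WS against non-WS. TEF was known beforehand to differ between severe and mild WS on these arrays, and both comparisons share the mild WS samples. Its lack of overlap is therefore a description, and for a gene chosen in this way these shares do not tell how unusual it is. The non-WS and severe WS arrays that stand above mild WS are those in slide row 1, and the part of the row was not tested.

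NFIL3, the D-box repressor (NM_204618.2), was read on the WS arrays from a fit without the detection filter. There it was 24.6, 57.5, 55 and 111 in non-WS and 53.9 to 135 in mild WS, and mild WS was 1.15 ± 0.44 higher on the log2 scale (limma adjusted p = 0.296). The 3 lower non-WS samples reached at most 57.5, but the groups overlapped. Moderate WS samples ranged from 36.5 to 195 and severe WS samples from 57.7 to 99.5.

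Counted over the WS study, 0 of 8 member genes were called by limma in each of the 6 comparisons. Across all probes, 0% were called in moderate against mild, severe against moderate, severe against mild and moderate against non-WS, and 0.00306% (1 probe) in mild and in severe WS against non-WS. At an unadjusted p of 0.05 with the same fold, the member genes numbered 2 in moderate against mild WS (7.28% of all probes), 1 in severe against moderate (7.79%), 2 in severe against mild (9.12%), 3 in mild against non-WS (14.9%), 1 in moderate against non-WS (14.5%) and 0 in severe against non-WS (5.38%). PER3 or TEF, which the list was built from, make up 5 of these 9. Some marker lists of other cells also differed between non-WS and mild WS. The summed intensity of 3 erythrocyte markers ranged from 50895 to 69166 in non-WS and from 18135 to 42139.6 in mild WS. All of the 3 were lower at an unadjusted p of 0.05 or less. Of 5 adipocyte markers 3 were higher in mild WS at that threshold (median log2 difference 0.58), and of 6 fibroblast and matrix markers 2 were (0.37). The sum of 6 macrophage markers ranged from 86346 to 104847 in non-WS and from 81431 to 164742 in mild WS. None of those 6 passed the threshold (median log2 difference 0.11). The part of these lists in the member values was not tested.

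**Figure D2:**
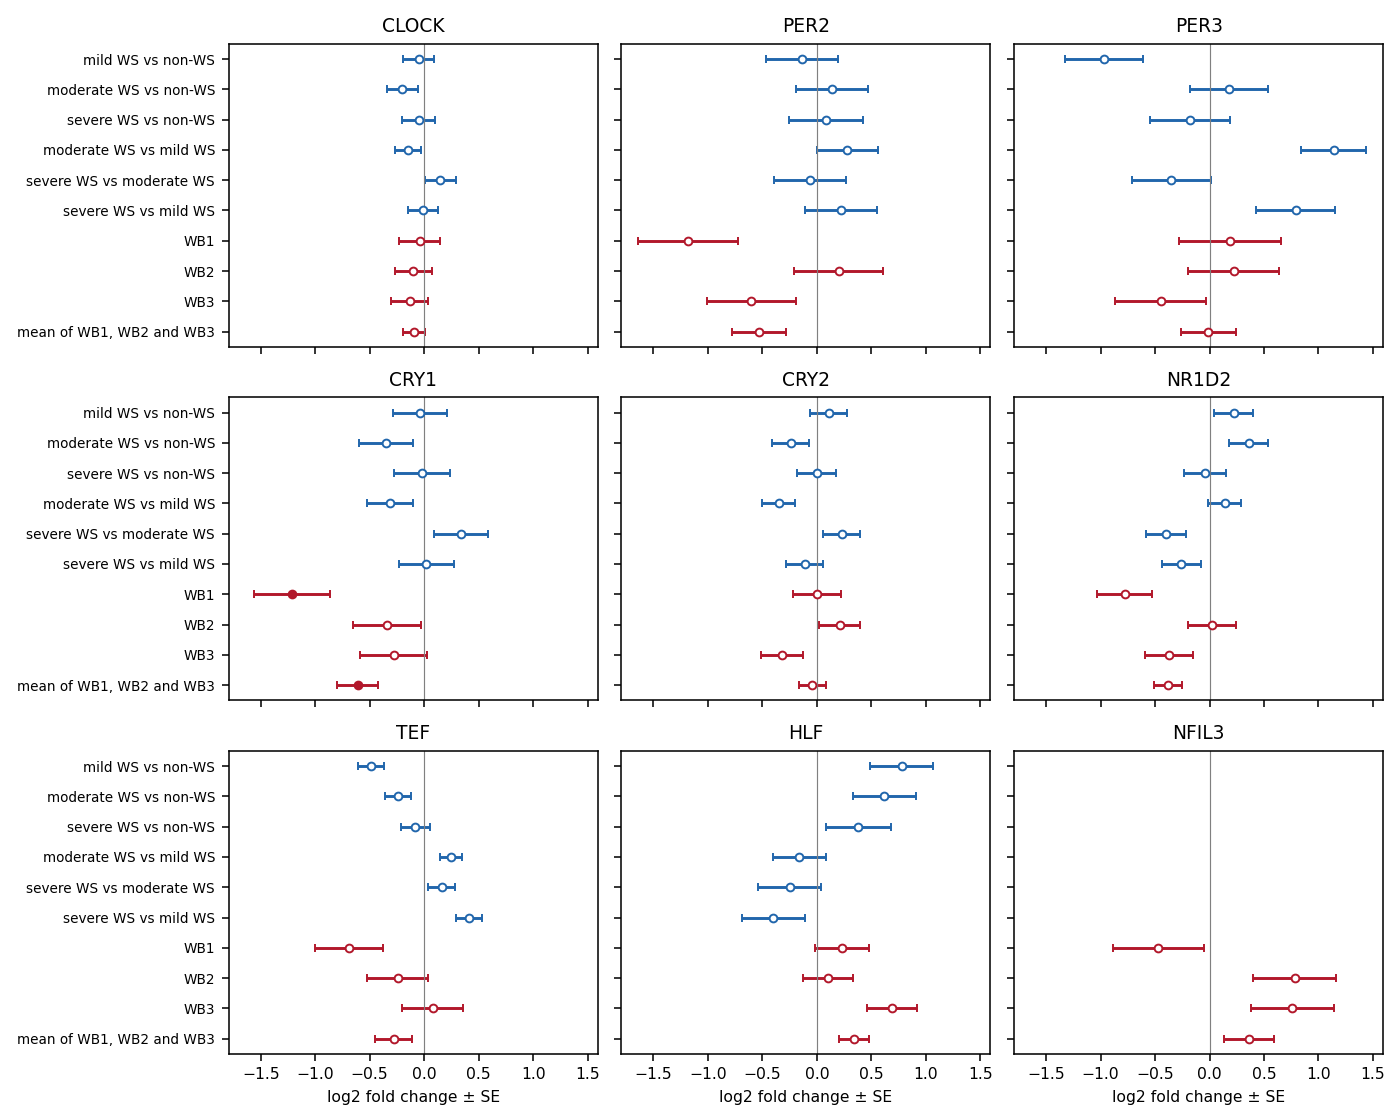
Log2 fold change ± SE of each measured member gene (main probe, slide in the model) in the 6 WS comparisons (blue) and in the WB comparisons (red), where WB1, WB2 and WB3 are severe WB against non-WB at mild WS and 49 days, at moderate WS and 49 days, and at 45 days or under. Filled points are called, which holds for CRY1 in WB1 (-1.21) and in the mean of the 3 (-0.61).

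In the WB study, severe WB was set against non-WB in 3 comparisons, at mild WS and 49 days (WB1, 2 against 3 samples, all on slide 5), at moderate WS and 49 days (WB2, 3 against 4) and at 45 days or under (WB3, severe WB with mild WS against non-WB with severe WS, 3 against 4). The fourth non-WB array of WB2 and of WB3 lay on slide 5, away from the others of its comparison, so that with slide in the model both differences rest on 3 against 3 arrays. In WB3 the WS grade differs along with WB, so the 2 defects cannot be told apart there. CRY1 was the only member called, and 1 of 9 members is near the share of all probes called in WB1 and below that in the mean of the 3 comparisons. In the non-WB mild WS samples CRY1 was 1037, 1074 and 743, and in the severe WB samples of the same age and grade it was 347 and 472. Both severe WB samples lay below all 3 non-WB samples. The fold change was 2.32 (log2 difference -1.21 ± 0.35, limma adjusted p = 0.0424). It was 1 of 9 member genes called in WB1, where 10.6% of all probes were called.

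At moderate WS, CRY1 was 1004, 1051, 923 and 1005 without WB and 599.7, 834 and 956 with severe WB, and the lowest severe WB sample stood apart from the other 2, while the groups overlapped (log2 difference -0.34 ± 0.31, adjusted p = 0.67). In the younger birds it was 994, 1048, 809 and 859 without WB and 515, 633 and 1442 with severe WB, where the highest and lowest samples were both severe WB (-0.28 ± 0.31, adjusted p = 0.73). In the mean of the 3 comparisons, CRY1 fell by 0.61 ± 0.19 on the log2 scale (limma adjusted p = 0.0332, FC 1.53), and it was again the only member called, against 23.3% of all probes. The difference of WB3 from the mean of WB1 and WB2 was 0.50 ± 0.39 (adjusted p = 0.976), so WB3 was not shown to differ from that mean. For this difference 0 members and 0% of probes were called (4.21% at an unadjusted p of 0.05). WB1 and WB2 were not set against each other in a test. The CRY1 calls lay near the threshold and changed with single arrays left out. In WB1 some of these arrays are not part of that comparison and enter only through the shared fit and adjustment. With 1 of the 19 arrays left out at a time, the adjusted p ranged from 0.00383 to 0.219 in WB1 and from 0.000738 to 0.0968 in the mean, and without severe WB mild WS replicate 1 at 49 days the WB1 difference was -0.99 (adjusted p = 0.219). Of these exclusions 2 left the fit as it was, and of the other 17 the call was lost in 10 in WB1 and in 11 in the mean, with CRY1 lower in severe WB in all of them. In WB1 it was also lost with 75th percentile scaling (limma adjusted p = 0.0509), without the detection filter (0.0671), with a replicate block (0.0759), with the methods' t-test and in the authors' normalized values (-0.41, adjusted p = 0.293), and in the mean without the filter (0.0526), with the block (0.0602) and in the authors' values (-0.25, adjusted p = 0.265). In the authors' values the median of all probes was itself 0.70 in WB1 and 0.29 in the mean. The CRY1 values from them contain that shift and are not directly comparable with the main fit.

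PER2, NR1D2 and TEF also lay without overlap lower in severe WB in WB1, but were not called. PER2 was 796, 1060.2 and 843 in non-WB and 385 and 402 in severe WB (log2 difference -1.18 ± 0.46, limma adjusted p = 0.0958), and its second probe, NM_204262.1, gave -1.11 ± 0.57 (adjusted p = 0.185). NR1D2 was 7090.2, 6896 and 5251 against 3974 and 3460.4 (-0.78 ± 0.25, adjusted p = 0.0592; the probe NM_205205.2 -0.65 ± 0.32). TEF was 862, 943 and 1132 against 612 and 593 (-0.69 ± 0.31, adjusted p = 0.139). For TEF, PER2 and NR1D2 both severe WB samples were close to each other and below every non-WB sample. With 2 arrays against 3, 56.9% of all probes showed such a lack of overlap, so 4 of 9 members (CRY1 included) is no more than the array as a whole. At an unadjusted p of 0.05 with |FC| of 1.2, 4 members passed in WB1, against 33.1% of all probes.

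**Figure D3:**
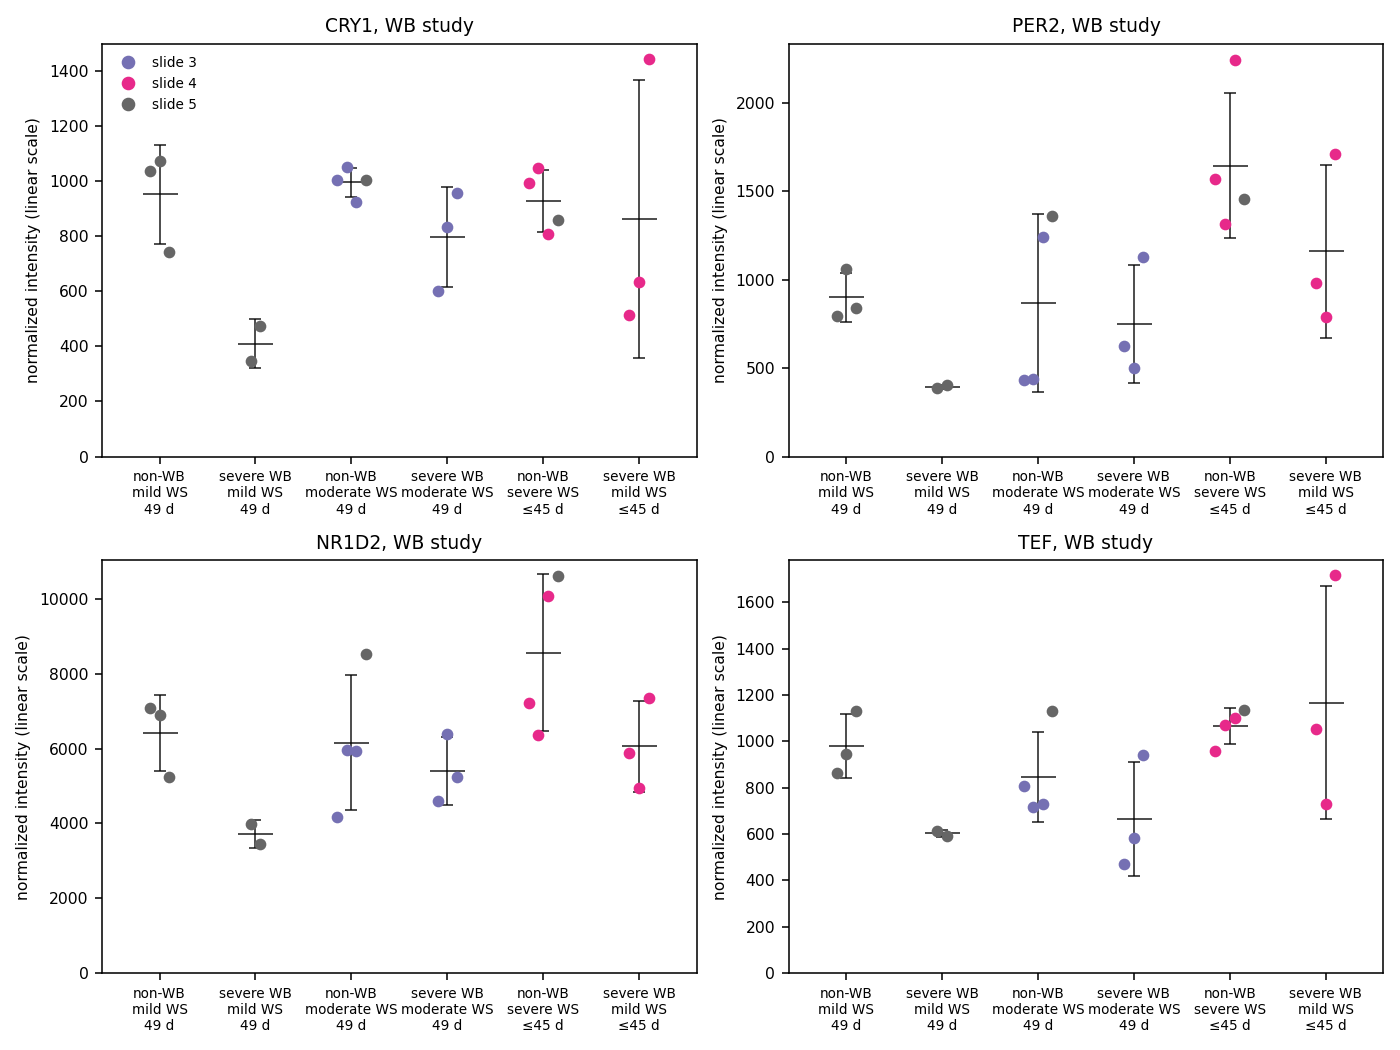
Normalized intensity (linear scale) of CRY1, PER2, NR1D2 and TEF on the 19 WB study arrays by group, with points coloured by slide, the group mean as a long line and the SD as the bar. The 2 severe WB mild WS samples of 49 days lie lowest for CRY1 (347 and 472), PER2 (385 and 402) and NR1D2 (3974 and 3460.4).

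In the other WB comparisons these 3 genes overlapped between groups. In WB2, PER2 was 434, 437, 1242 and 1359 in non-WB and 623, 502 and 1131 in severe WB, and the non-WB samples were split between 2 low and 2 high values. In WB3 it was 1570.1, 1318, 2241 and 1455 against 983, 787 and 1714 (-0.60 ± 0.41), with 2 of the 3 severe WB samples below all others. For NR1D2 the samples in WB2 were 4162, 5977, 5933 and 8541 against 4600.1, 6398 and 5231 (0.02 ± 0.22). In WB3 they were 7221, 6357, 10076 and 10619 against 5875, 4943 and 7365 (-0.37 ± 0.22). TEF was 806, 717, 728 and 1132 against 471, 583 and 939 in WB2, and 957, 1072, 1099 and 1133 against 1053, 729.8 and 1715 in WB3, where the severe WB samples held both the lowest and the highest value. In the mean of the 3 comparisons the adjusted p was 0.0564 for NR1D2 (-0.38 ± 0.13) and 0.127 for PER2 (-0.53 ± 0.25). NR1D2 is just outside the threshold in both tests and crossed it under several alternative settings. Its second probe, NM_205205.2, was farther from the threshold (limma adjusted p = 0.166 in WB1 and 0.161 in the mean). In the authors' normalized values NR1D2 was -0.21 in WB1 and -0.13 in the mean and was not called, with the median of all probes at 0.70 and 0.29 there.

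HLF ran the other way. Its samples were 1839.6, 1627 and 1463 in non-WB and 1763 and 2099.9 in severe WB at mild WS, and 2097, 1346, 2047 and 1336 against 1780.3, 2125 and 1895 at moderate WS. In the younger birds they were 2199.9, 1531, 1319.8 and 2376 against 3386, 2409 and 2266. The groups overlapped in each comparison, and severe WB had the higher mean in each. The log2 difference was 0.69 ± 0.23 in WB3 (adjusted p = 0.433) and 0.34 ± 0.14 in the mean (adjusted p = 0.0812), and neither was called. NFIL3 was higher in all 3 severe WB samples than in all 4 non-WB samples of WB2 (means of 135 ± 35.8 and 72.3 ± 19.4, with the highest non-WB sample at 95.7; log2 difference 0.78 ± 0.38, adjusted p = 0.425), a lack of overlap that 13.8% of all probes showed. It was 0.76 ± 0.38 in WB3 (adjusted p = 0.473) and -0.47 ± 0.42 in WB1, where non-WB samples were 207, 129 and 76.8 and severe WB samples 80.4 and 104.

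CRY2 and CLOCK varied least over the WB arrays. CLOCK ranged from 268 to 445 on all 19 arrays, and its log2 differences were between -0.13 and -0.04, including WB3, where its severe WB samples (302, 318 and 279) lay below the non-WB samples (330.3, 321, 328 and 341), as 6.27% of all probes did without overlap in either direction. CRY2 differed by 0.00 ± 0.22, 0.21 ± 0.19 and -0.32 ± 0.19 in WB1, WB2 and WB3. Its second probe gave -0.11 ± 0.24, -0.19 ± 0.21 and -0.27 ± 0.21, so the probes had opposite signs in WB2. In WB2 and WB3, 0 of 9 members were called, as was the case for 0% of all probes, and 0 and 1 members passed the unadjusted threshold against 12.1 and 10.8% of probes. In the mean of the 3 comparisons 4 members did so, against 36.5%.

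PER3, around which the list was built, was called in none of the WB comparisons. The samples were 228, 362 and 372 against 408 and 314 in WB1, 120.1, 147, 348 and 986 against 209, 169 and 277 in WB2, and 507, 589, 1542 and 1630.5 against 649.8, 540.3 and 514 in WB3. The groups overlapped in all 3 comparisons, and the non-WB groups in WB2 and WB3 each held 1 or 2 samples far above the rest. The log2 differences were 0.19 ± 0.47, 0.22 ± 0.42 and -0.45 ± 0.42, with limma adjusted p of 0.799, 0.857 and 0.675. Their mean was -0.01 ± 0.25 (adjusted p = 0.979). By group mean PER3 descended from non-WB severe WS (1067 ± 601) and severe WB mild WS (568 ± 72.2), both of 45 days or under, to non-WB moderate WS (400.2 ± 403), severe WB mild WS at 49 days (361 ± 66), non-WB mild WS (321 ± 80.8) and severe WB moderate WS (218 ± 54.5), and each group overlapped its neighbour.

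PER3 was mostly higher in the samples with the younger age on the label. All 7 samples of 45 days or under lay at 507 or above (median 589), and 11 of 12 samples of 49 days lay below 507 (median 295.5), the exception being non-WB moderate WS replicate 4 at 986. The value of 507 is itself the lowest younger sample. How many of all probes split as well by age was not counted, so the split is not shown to be unusual for these arrays. For PER2 and TEF, 6 of 12 samples of 49 days lay below the lowest younger sample, and for CLOCK 1 of 12. Age was not separable from the slide or from the grade, since 6 of the 7 younger samples were on slide 4, which held no sample of 49 days, and the younger non-WB samples were graded severe WS. The test available, severe WB with mild WS at 45 days or under against 49 days, gave 1.74 ± 0.76 for PER3 (limma adjusted p = 0.497), 1.15 ± 0.40 for NR1D2 (adjusted p = 0.426), 0.99 ± 0.41 for HLF (adjusted p = 0.475) and 1.29 ± 0.74 for PER2 (adjusted p = 0.572). Its 49-day side is the 2 severe WB arrays of WB1, the lowest of the WB study for NR1D2 and PER2, so it is not independent of WB1. This test could be fitted only because 1 younger array, non-WB severe WS replicate 4, lay on slide 5, and without a slide term PER3 differed by 0.66 ± 0.68. In this comparison 0 members were called (0.0029% of all probes) and 3 passed the unadjusted threshold (9.76%).

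Cell and hormone markers differed between the groups of WB1 too, where 10.6% of all probes were called. In WB1 the summed intensity of 6 fibroblast and matrix markers was 215878 to 252905 without WB and 452378 to 559763 with severe WB (5 of 6 called higher), and that of 6 macrophage markers was 140727 to 182235 against 297527 to 331281 (2 of 6 called). The 5 fast muscle markers summed to 825389 to 875964 against 737788 to 747448 (1 called lower). For 7 genes known to respond to glucocorticoids, which also act on clock genes, the sums were 176659.6 to 311212 and 79641 to 83256. The median log2 difference of the 7 was -2.37. Of them 5 were called lower, among them PDK4 (-3.22 ± 0.55, limma adjusted p = 0.0115) and KLF9 (-2.58 ± 0.46, adjusted p = 0.0131). The median processed signal of the 2 severe WB arrays was 273 and 298, the highest of the study. The groups of WB1 did not overlap in any of these measures, as was so for 56.9% of all probes. The sum of 3 erythrocyte markers did not overlap either (45997 to 61569 without WB against 89867 to 135850). The sums of 5 adipocyte markers (55339 to 90237 against 82927 to 127555) and of 3 endothelium markers (13414 to 28159.8 against 14119.6 to 16891) did overlap. The part of the measures in the CRY1 difference was not tested. In WB2 and WB3 none of these marker genes was called. The median log2 difference of the glucocorticoid genes was 0.58 and 0.32 there, the other way from WB1. For fibroblast and matrix markers it was 0.75 and 0.76 and for macrophage markers 0.71 in both, the same way as in WB1.

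The members differed in their spread over all arrays of a study, which includes differences between groups, ages and slides. Across the 19 WB arrays the SD of PER3 was 1.04 on the log2 scale, more than that of 97.5% of probes, with the highest array 13.6-fold above the lowest. Across the 21 WS arrays it was 0.666, with a 7.72-fold range, which contains the difference between moderate and mild WS for which PER3 was chosen. The SD of PER2 was 0.777 in WB and 0.577 in WS, above 92.8% and 85.1% of probes. The median over all probes was 0.356 in WB and 0.345 in WS. At the other end CLOCK had an SD of 0.16 in WB, above 5% of probes. In WS the lowest was that of TEF at 0.252, above 26.2% of probes, followed by CRY2 at 0.288, above 36.1%.

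The relation of the other members to PER3 was described in each study on its own, and the studies were not compared by a test. Over the 19 WB arrays Pearson's r with PER3 was 0.74 for PER2 (Spearman's rho 0.68), 0.65 for NR1D2 (0.52), 0.58 for TEF (0.71) and -0.49 for NFIL3 (-0.45). With group and slide removed, the values were 0.71, 0.38, 0.17 and -0.65, so PER2 and NFIL3 kept their relation within groups and TEF did not. Without the 2 arrays farthest from the median of PER3 (non-WB severe WS replicates 3 and 4), r was 0.66 for PER2, 0.39 for NR1D2, 0.54 for TEF and -0.24 for NFIL3, so that the relations of NR1D2 and NFIL3 rested in part on those arrays. Within slides 3, 4 and 5, r of PER2 with PER3 was 0.97 (6 arrays), 0.55 (6 arrays) and 0.64 (7 arrays), and that of NFIL3 -0.07, -0.82 and -0.83. These are descriptions over arrays that share slides and a normalization, without a test.

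**Figure D4:**
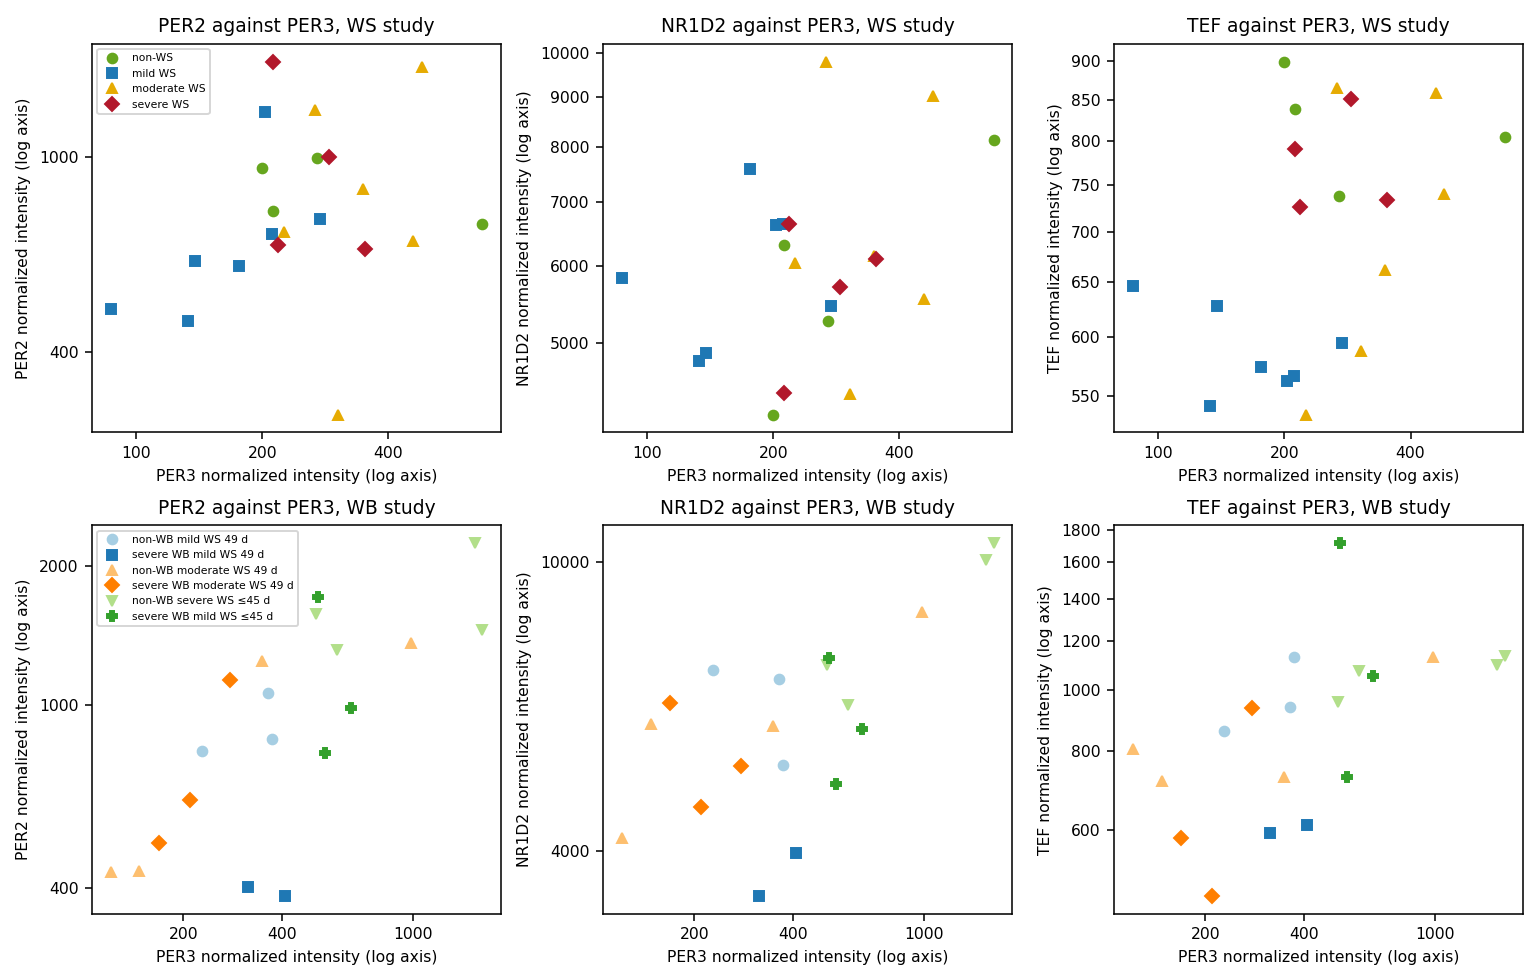
Normalized intensity of PER2, NR1D2 and TEF (vertical, log axis) against that of PER3 (horizontal, log axis), with 1 point per array, in the WS study (21 arrays, top) and the WB study (19 arrays, bottom). PER2 follows PER3 in the WB study (r = 0.74 on the log2 scale) but for the 2 severe WB mild WS samples of 49 days (PER2 at 385 and 402), and in the WS study r is 0.27.

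Over the 21 WS arrays r with PER3 was 0.41 for TEF (rho 0.38), 0.36 for NR1D2 (0.24), 0.27 for PER2 (0.29) and -0.39 for CRY1 (-0.45). Removal of group and slide raised NR1D2 to 0.57 and took TEF to -0.10. PER3 and TEF were both chosen for a difference between WS groups, so nothing is read from the value of that pair before removal. Without non-WS replicate 1 and mild WS replicate 2, the farthest from the median, the values before removal were 0.40, 0.30, 0.23 and -0.55. On slides 1 and 2 (8 arrays each), NR1D2 gave 0.47 and 0.05 and PER2 0.39 and 0.10.

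Among the other pairs in WB, PER2 was close to NR1D2 (r = 0.79; 0.46 with group and slide removed) and to TEF (0.76; 0.55). CRY1 and NFIL3 were unrelated over all arrays (0.19) but followed each other within groups (0.70). In WS, PER2 and CRY1 gave 0.37, and 0.64 with group and slide removed, whereas in WB the same pair went from 0.51 to 0.32. CLOCK gave values between -0.34 and 0.18 with the other members in WB.

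**Figure D5:**
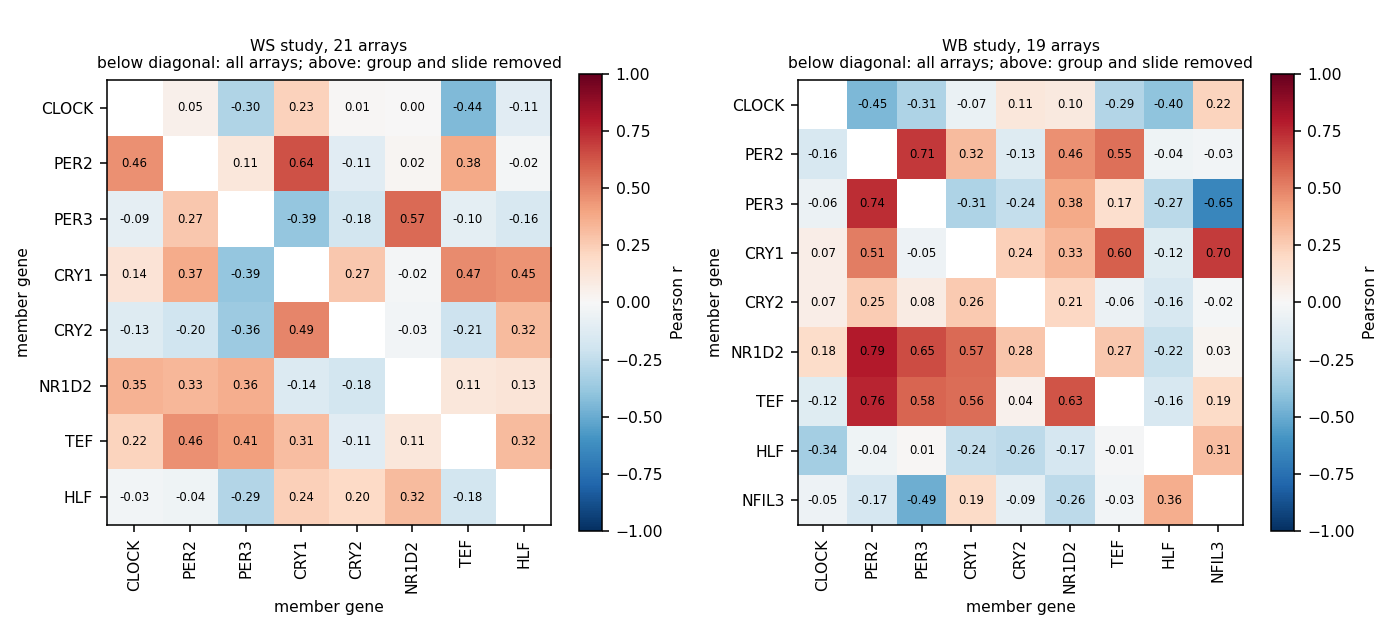
Pearson's r between the log2 intensities of the member genes in the WS study (21 arrays, left) and the WB study (19 arrays, right), over all arrays below the diagonal and with group and slide removed above it, as the colour scale and the printed value. PER2, PER3, NR1D2 and TEF form a block of positive values below the diagonal in WB (0.58 to 0.79), and the same pairs give 0.11 to 0.46 in WS.

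The genes most like PER3 outside the list were sought with group and slide removed over the 21 WS arrays, where the median r over 32629 probes was 0 and 2.83% exceeded 0.5. Among genes with a matched symbol the highest were NRAS (0.78, 14th of all probes, PER3 probes included), a small GTPase, TMEM192 (0.77), a lysosomal membrane protein, BBIP1 (0.76), a subunit of the BBSome, SMYD3 (0.75), a lysine methyltransferase, and CHMP4B (0.75), an ESCRT-III subunit. Over the 19 WB arrays the same genes gave 0.54, 0.36, 0.20, 0.02 and -0.13, so only NRAS stayed above 0.5. The lowest such genes in WS were SEC16A (-0.88), FASTKD3 (-0.85) and WBP11 (-0.81), and these gave -0.24, -0.36 and 0.07 in WB. By the same measure NR1D2 ranked 410th of 32629 in WS and 3707th of 34519 in WB, and PER2 ranked 10930th in WS and 136th in WB, where 4.98% of probes exceeded 0.5.

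Of 22 further clock pathway genes, 17 had a probe and 16 entered the fits. None of the 16 was called in any WS comparison, while 6 passed the unadjusted threshold in mild WS against non-WS (2 higher and 4 lower; 14.9% of all probes). NOCT was 1.44 ± 0.54 higher in mild WS (limma adjusted p = 0.224). BHLHE41 (DEC2), a repressor of the CLOCK and ARNTL dimer, was 1.14 lower (-1.14 ± 0.25, adjusted p = 0.0866). NPAS2, a paralogue of CLOCK, was -0.77 ± 0.24 in moderate WS against non-WS (adjusted p = 0.154). CIART, another repressor of that dimer, which like TEF stood out in severe against mild WS on these arrays, is described without a test, with log2 differences of 0.50 ± 0.14 for severe against mild WS and -0.66 ± 0.14 for mild WS against non-WS. It is among the 4 lower genes counted above, so that count holds a gene already known from these arrays.

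In WB1, 2 of the 16 were called lower and none higher, where 10.6% of all probes were called. NOCT was lower by 3.39 on the log2 scale (-3.39 ± 0.74, limma adjusted p = 0.0204), and USP2, a deubiquitinase that acts on clock proteins, was lower by 2.42 (-2.42 ± 0.56, adjusted p = 0.0227). Over the mean of the 3 WB comparisons 2 were called higher and 2 lower, against 23.3% of all probes called. CSNK1A1, a casein kinase of the family that phosphorylates PER proteins, was higher (0.56 ± 0.14, adjusted p = 0.0163), as was BHLHE41 (0.50 ± 0.15, adjusted p = 0.0316), and USP2 (-1.17 ± 0.30, adjusted p = 0.0183) and FBXW11 (-0.34 ± 0.10, adjusted p = 0.0244), an F-box protein that marks PER proteins for breakdown, were lower. The median over the 16 was 0.04 in WB1 and -0.04 in the mean, beside 0 and -0.01 over all probes. In WB2 and WB3 none was called. With group and slide removed, r with PER3 over the 16 ran in WB from -0.56 (NPAS2) to 0.67 (ARNTL2). The next lowest were BTRC (-0.47) and CSNK1D (-0.37), and the next highest was BHLHE41 (0.59). ARNTL2, a paralogue of ARNTL that was above background on all 40 arrays, had an r of 0.77 in WB before removal. In WS it was 0.26 (0.20 with group and slide removed). For BHLHE41 r was 0.70 in WB before removal, and 0.43 in WS (0.48). The 16 thus did not follow PER3 as a set.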

How the data were processed

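The 40 arrays were custom chicken arrays in Agilent's one-colour format. The deposited intensity values, per the file headers, are background-subtracted processed signals (with median spot and background intensities) made by the authors with Feature Extraction 10.7.1.1; no depth exists for arrays, and the number of arrays limits precision. The authors' normalized table, also deposited as intensity, served as an alternative. Its step of batch correction is not stated for that table, the methods name quantile normalization and ComBat, and ComBat was not run here, a slide term being fitted instead.

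Spots of a probe were averaged. A probe entered a study's fit if it was well above background, not flagged as an outlier and at 20 or more on every array. Signals were quantile-normalized within each study, taken to log2 and fitted with limma 3.58.1 (R 4.3.3), with group and slide as terms, residual df of 13 and 11 and Benjamini-Hochberg adjustment over all probes. The code recovered known changes when tested on simulated data. Samples were grouped by their labels, and no column was left unused (0 columns).

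The members and lists were chosen with earlier results of these data known. Named genes were the members, the clock pathway genes called or with the 3 smallest p in a comparison (not all are shown), and the 5 most and 3 least like PER3 among genes with a matched symbol. Symbols came from matching RefSeq accessions (46% of probes), and the gene models' coordinates were not used. No sequence is given, as the tables used here hold none. Alternatives tried were 75th percentile scaling, normexp (offset 50), no filter, no slide term, slide as a random block, a replicate block, each pair of groups alone, the 17 arrays with a WS level, the methods' t-test, the authors' values and each array left out.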

Additional observations from a re-analysis of the deposited data

Results flagged for a closer look

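In 3 of 50 groups examined (each member's main probe, in groups of 4 to 7 samples), 1 sample lay far from all others of its group, where chance alone gives about 5% of groups. PER3 in non-WS replicate 1 was 671, with the other 3 non-WS samples at 199.8 to 270.1. PER2 in mild WS replicate 3 was 1239, with the other 6 at 463 to 747. CRY2 in mild WS replicate 6 was 10801, with the other 6 at 4252 to 7074.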

How the results depend on the processing

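Members called were 0 under every setting run in all 6 WS comparisons, WB2, WB3, the difference of WB3 from the mean of WB1 and WB2, and the age comparison. In WB1 (1 called, CRY1) the count was 0 with 75th percentile scaling, without the detection filter and with the methods' t-test, 2 with normexp (CRY1, NR1D2) and with the pair of groups alone (CRY1, PER2), and 0 to 2 with 1 array left out. In the mean (1 called, CRY1) it was 2 (CRY1, NR1D2) with 75th percentile scaling, normexp, no slide term or slide as a random block, 0 without the filter, and 0 to 4 with 1 array left out, with 4 (CRY1, HLF, NR1D2, TEF) without severe WB mild WS replicate 3 of 45 days or under. The replicate block gave 2 members (NR1D2, PER2) in WB1 and in the mean. Numbers did not pair samples, as same-numbered samples had correlations of deviations from -0.23 to 0.33, and 0 to 2 samples of a comparison were nearest to their own number, except 3 of 4 in severe WS against non-WS (correlations 0.06 to 0.14). The block and the pair-alone settings could not be fitted for the age comparison.

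In the authors' normalized values the median of all probes was shifted by 0.70 in WB1, 0.15 in WB2, 0.29 in the mean, -0.38 in the difference of WB3 from WB1 and WB2 and -0.61 in the age comparison, and 94.0% of probes at an unadjusted p of 0.05 were higher in WB1, against 49.9% above. There TEF in WB1 turned to 0.11 (adjusted p = 0.724), CRY1 was -0.41 (adjusted p = 0.293), and HLF was the member called in WB1 and the mean. These member values contain the shift of all probes, so the lost calls, the turned sign and the call of HLF cannot be told apart from it. Of all single-gene fold changes under the alternatives, 1 was reversed, 29 fell short of the threshold, 19 newly passed it and 613 kept their side. With 75th percentile scaling, 72.2% (severe against moderate) and 73.9% (severe against mild WS) of probes at the unadjusted threshold were higher, against 58.7% in both. Probes called in WB1 ranged from 19 (without severe WB mild WS replicate 1 of 49 days) to 8054 (without replicate 3 of 45 days or under), and the latter gave 4291 in WB3 and 13044 in the mean, whose lowest count was 3379 (without severe WB mild WS replicate 2 of 49 days). By setting, WB1 gave 14415 probes in the authors' values, 6306 with the pair alone, 2262 with the replicate block and 34 with the methods' t-test, against 3645. Mild WS against non-WS gave 0 to 19 probes by setting and 147 without mild WS replicate 3, moderate WS against non-WS 0 to 29 and 153 without mild WS replicate 6 or without moderate WS replicate 6, and the age comparison 109 without the filter. The cause was not tested. Array signal over background limits ARNTL and the dim PER2 and PER3 probes.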
